A study of Mus musculus with 12 samples.

Results

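Romidepsin was compared with its solvent DMSO in mouse KP1 cells that overexpress NRF2. KP1 is a cultured line that the labels call LUAD, the usual abbreviation for lung adenocarcinoma. The comparison takes 6 of the 12 libraries of the study: 3 from NRF2-overexpressing cells given DMSO and 3 from NRF2-overexpressing cells given 5 nM romidepsin, all harvested after 16 h. The other 6 libraries came from cells of the same line with an empty vector (EV), with the same agents, dose and time, and were used here for the shared estimate of spread and for the test of whether the response differed between the lines. Polyadenylated RNA was sequenced. All groups derive from 1 cell line, and the labels give neither the vector, the number of clones, nor whether the 3 libraries of a group came from separate transductions or days, so the p-values measure the spread between these cultures, which may be technical. The comparison covers all 35013 genes of the deposited table.

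Histone deacetylases (HDACs) remove acetyl groups from lysines of histones and other proteins, largely as the catalytic subunits of corepressor complexes. Romidepsin is a cyclic depsipeptide that is reduced in the cell to a form that binds the zinc of class I HDACs, and cells given it accumulate acetylated histones. Inhibitors of this class are known for arresting the cell cycle, with induction of the CDK inhibitor p21 (gene Cdkn1a), and for switching on tissue-restricted genes that are silent in a given cell type. NRF2 (gene Nfe2l2) is a transcription factor that KEAP1 marks for degradation. When it accumulates, it binds antioxidant response elements beside small MAF proteins and drives genes of glutathione synthesis, thioredoxin recycling, detoxification and iron storage, and it is often active in lung adenocarcinoma.

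The 6 libraries held 16842824 to 28003010 estimated counts. DMSO libraries had a count in 16324 to 17040 genes and romidepsin libraries in 17751 to 18567. DMSO library 3 stood apart from the other 2 of its group. Its root mean square distance from them was 0.465 on the log2 scale, where the other 5 libraries lay between 0.255 and 0.350 from theirs. Of 9920 genes averaging at least 5 CPM with DMSO, it differed over 2-fold from the mean of the other 2 in 43. Of these, 35 were predicted genes, pseudogenes or mitochondrially encoded genes. DMSO libraries 1 and 2 differed so in 15 and 21 genes, and each romidepsin library in 2 to 6 of 10227. The pseudogene Gm29216 was at 1337, 1424 and 1.94 CPM in DMSO libraries 1, 2 and 3, and mitochondrially encoded genes took 7.30% of its counts where the other 5 libraries ranged from 5.18% to 6.24%. Counts over all genes are therefore given with and without this library, and so are those of some lists. Where a list has 1 count only, all 6 libraries were used. CPM, the unit of level used throughout, is the estimated count after scaling every library to the same size (TMM).

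Expression of the manipulated gene was checked first. Nfe2l2 (GRCm38 chromosome 2, 75675513 to 75704641) was at 281, 282 and 352 CPM in the 3 NRF2 libraries with DMSO and at 339, 343 and 365 CPM in those with romidepsin. All 6 lay above the EV libraries, which ranged from 93.3 to 103 CPM with either agent. The romidepsin libraries overlapped DMSO library 3, and the log2 fold change of 0.19 ± 0.07 (SE; edgeR adjusted p = 0.016) was no longer called without DMSO library 1 (edgeR adjusted p = 0.11), without DMSO library 2 (edgeR adjusted p = 0.11), without romidepsin library 3 (edgeR adjusted p = 0.069) or when the 6 NRF2 libraries were fitted alone (edgeR adjusted p = 0.056). Keap1, which encodes the adaptor that targets NRF2 for degradation, was at 69.4, 71.01 and 75.02 CPM with DMSO and 34.97, 35.9997 and 36.2 CPM with romidepsin, a 2.01-fold fall without overlap of the groups (edgeR adjusted p = 5.9e-12). Trp53, which encodes p53, was at 11.5, 14.3 and 14.7 CPM with DMSO and 2.76, 2.29 and 2.68 CPM with romidepsin (edgeR adjusted p = 1.5e-11). The labels do not give the p53 status of the line.

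Romidepsin changed most of the genes that could be tested. Of 13502 genes past the filter on low counts, 79.8% were called: 5471 (40.5%) were higher and 5309 (39.3%) lower with romidepsin at an adjusted p under 0.05 in edgeR's quasi-likelihood test. At least a 2-fold change was seen in 2599 higher (19.2%) and 1703 lower genes (12.6%). Without DMSO library 3 the counts were 5459 (40.4%) higher and 5546 (41.1%) lower, and 10495 of the 10780 called genes kept their call while 0 changed direction. These percentages are the background given for the gene lists below: over all tested genes, about 4 in 10 rose and about 4 in 10 fell. The shares differed with the level of a gene, as given next. The median log2 fold change of all genes was 0.01, or 0.15 with factors from library size alone and 0.12 with upper-quartile factors, so changes of that size depend on the scaling. In bulk RNA, a change in the make-up of the culture and a change in RNA per cell cannot be told apart, and CPM does not show whether total RNA changed.

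The direction followed the level with DMSO. Among the 2149 tested genes below 1 CPM with DMSO, 65.5% rose and 4.19% fell. Among the 2349 genes at 100 CPM or more, 23.2% rose and 63.7% fell. The list counts below are not adjusted for level. For a list of abundant genes, these shares are a nearer comparison than those over all genes. The filter keeps a gene that is near silent with DMSO only if some other group expresses it, so the share of rises among the lowest genes is partly set by the filter, and so are the counts of lists below with members that are near silent with DMSO. A rise called in a single gene near silent with DMSO is likewise partly set by the filter, so its p-value is no separate support.

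**Figure D1:**
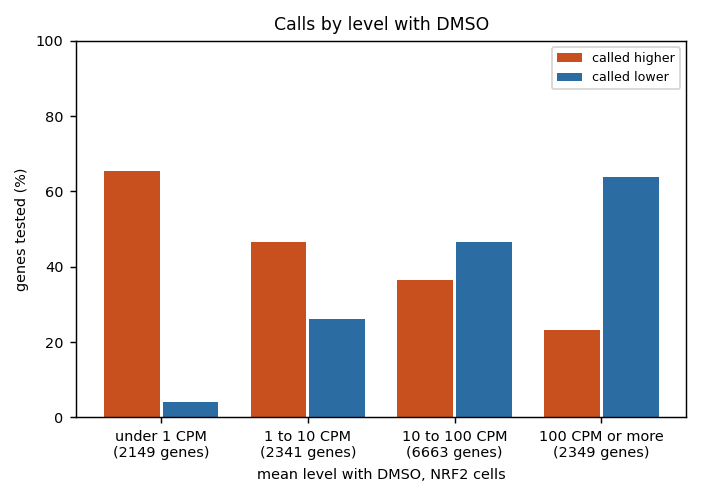
Share of tested genes called higher (orange) or lower (blue) with romidepsin in NRF2 cells, in percent on the vertical axis, for genes grouped on the horizontal axis by mean CPM with DMSO. Rises outnumber falls below 10 CPM and falls outnumber rises above it.

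The largest rises were of genes close to silent with DMSO, and many of them belong to other tissues. Gsdma, which encodes a pore-forming gasdermin of skin (chromosome 11, 98664351 to 98677708), had 0 counts in each DMSO library and 264, 329 and 183 counts with romidepsin. Taking 3 counts as the most the DMSO group could hide, it was at least 242-fold higher. Hba-a2, an alpha-globin gene (chromosome 11, 32296489 to 32297298), had 0 counts with DMSO and 251, 335 and 177 with romidepsin, at least 238-fold higher. Counts of Hba-a2 and of its near-identical copy Hba-a1 depend on how shared reads were divided, and Gsdma has close paralogs in the mouse. Vgf, the precursor of secreted neuropeptides (chromosome 5, 137026392 to 137033351), was at 0.393, 0.457 and 0.545 CPM with DMSO and 163, 174 and 155 CPM with romidepsin. Every romidepsin library lay far above every DMSO library, and the fitted log2 fold change was 8.46 ± 0.10 (edgeR adjusted p = 9.5e-20). Slc17a7, which loads glutamate into synaptic vesicles, rose from 0.0732 ± 0.0644 to 28.3 ± 0.919 CPM (SD, n = 3; edgeR adjusted p = 1.2e-15), and Cd248, a cell surface glycoprotein of stromal cells, from 0.11997 ± 0.123 to 27.2 ± 1.53 CPM (edgeR adjusted p = 2.2e-15). Both were near silent with DMSO in EV cells too, so they passed the filter only through romidepsin groups. Their levels show the rise, and the p-values add no separate support.

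The other 5 of the 10 had 1 to 3 counts over the DMSO group. Adgrb2, an adhesion G protein-coupled receptor of brain, had 1 count with DMSO and 820 with romidepsin, a ratio of 768 with a 95% interval of 138 to 30386 (Clopper-Pearson, counting error only). Nxph4 (a neurexophilin) had 2 and 878 counts, Cnn1 (calponin of smooth muscle) 3 and 1138, Arg2 (mitochondrial arginase) 2 and 761, and Plagl1 (an imprinted zinc finger gene) 2 and 750. The lower bounds of the ratios of these 4 genes ran from 96.9 to 121. Exons of Arg2 overlap those of Vti1b on the opposite strand, and whether the counting used strand is not given in the sources used here, so such a pair cannot be told apart with certainty.

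Falls were smaller on the log2 scale. Prl2c2 and Prl2c3, which encode the placental growth factors called proliferins, were among the 3 that fell furthest, with Rcbtb2. Prl2c3 (chromosome 13, 12790816 to 12800079) was at 56.9, 60.7 and 59.7 CPM with DMSO and 3.18, 3.305 and 3.94 CPM with romidepsin, 17.1-fold lower (edgeR adjusted p = 6.4e-16), and Prl2c2 went from 47.8 ± 4.39 to 1.16 ± 0.752 CPM (edgeR adjusted p = 6.5e-11). The proliferin genes are near-identical copies, so the division between them is uncertain. Clcf1, a cytokine of the interleukin 6 family (chromosome 19, 4214238 to 4223490), was at 145, 129 and 151 CPM with DMSO and 7.67, 8.58 and 8.499 CPM with romidepsin (edgeR adjusted p = 1e-17). Selp, the adhesion receptor P-selectin, was at 136, 139 and 142 CPM with DMSO and 9.68, 10.1 and 8.73 CPM with romidepsin (edgeR adjusted p = 3.7e-18). In both genes every DMSO library was above 100 CPM and every romidepsin library far below it, with no overlap.

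The remaining falls of the 10 were in Rcbtb2 (17.2-fold), the zinc finger gene Zfp532 (16.1-fold), the ubiquitin ligase gene Trim65 (14.9-fold), the transcriptional repressor gene Bend3 (13.9-fold), Klhl1 (13.1-fold) and the neuropeptide gene Qrfp (11.7-fold), each called lower by edgeR with groups that did not overlap. Exons of Rcbtb2 overlap Rb1 on the opposite strand and those of Trim65 overlap Trim47 on the same strand.

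Promoter sequence is shown for the first 2 rises and the first 2 falls that have an entry in the RefSeq promoter table (GRCm38.p6), and for Cdkn1a and Srxn1. These last genes were chosen after their values were seen, and are described below among the cell cycle and NRF2 results. Each is the 250 bases before an annotated start of the gene, 5′ to 3′ on the gene's strand. Other starts of these genes were not searched, so a motif absent from a window may lie at another promoter of the gene. Capitals mark matches on either strand to the GC box GGGCGG or the AP-1 site TGACTCA. The windows were also searched for the E-box CACGTG and for TGACNNNGC, a form of the core of the antioxidant response element to which NRF2 binds.
Hba-a2: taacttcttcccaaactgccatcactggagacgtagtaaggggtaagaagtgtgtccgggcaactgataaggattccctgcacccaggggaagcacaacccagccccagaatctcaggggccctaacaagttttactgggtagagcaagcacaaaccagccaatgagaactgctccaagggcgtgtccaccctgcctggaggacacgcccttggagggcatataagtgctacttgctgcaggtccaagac
Adgrb2: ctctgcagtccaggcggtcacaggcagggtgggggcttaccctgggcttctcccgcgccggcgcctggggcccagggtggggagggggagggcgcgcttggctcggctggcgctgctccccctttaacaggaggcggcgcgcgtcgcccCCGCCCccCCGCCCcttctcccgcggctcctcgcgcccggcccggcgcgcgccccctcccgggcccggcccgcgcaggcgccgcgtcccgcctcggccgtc
Rcbtb2: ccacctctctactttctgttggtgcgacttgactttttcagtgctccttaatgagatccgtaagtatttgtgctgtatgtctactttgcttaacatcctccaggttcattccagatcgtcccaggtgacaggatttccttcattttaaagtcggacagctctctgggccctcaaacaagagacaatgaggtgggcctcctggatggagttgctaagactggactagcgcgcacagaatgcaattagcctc
Prl2c3: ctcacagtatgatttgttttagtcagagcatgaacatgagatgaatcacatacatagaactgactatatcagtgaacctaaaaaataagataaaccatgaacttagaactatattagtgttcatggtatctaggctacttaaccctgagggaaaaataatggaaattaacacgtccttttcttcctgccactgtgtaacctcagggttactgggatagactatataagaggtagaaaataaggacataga
Cdkn1a: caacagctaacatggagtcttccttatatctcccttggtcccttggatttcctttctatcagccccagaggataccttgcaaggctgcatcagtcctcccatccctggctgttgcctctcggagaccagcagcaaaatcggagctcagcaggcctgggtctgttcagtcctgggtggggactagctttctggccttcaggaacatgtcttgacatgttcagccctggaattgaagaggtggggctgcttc
Srxn1: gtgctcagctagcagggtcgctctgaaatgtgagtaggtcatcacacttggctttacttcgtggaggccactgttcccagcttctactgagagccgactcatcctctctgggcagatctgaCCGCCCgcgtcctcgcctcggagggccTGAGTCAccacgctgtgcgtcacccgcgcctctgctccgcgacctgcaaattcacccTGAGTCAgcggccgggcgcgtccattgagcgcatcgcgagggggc
The windows lie at chr11:32296242-32296491 (plus strand), chr4:129984620-129984869 (plus), chr14:73142535-73142784 (plus), chr13:12800080-12800329 (minus), chr17:29090729-29090978 (plus) and chr2:152105274-152105523 (plus). The Adgrb2 window had 81.6% G or C and 2 GC boxes. The windows of Hba-a2, with 54.4% G or C, and Cdkn1a held no GC box, and the windows of both falls held none of the 4 motifs. Srxn1 held 1 GC box and 2 AP-1 sites, with no match to the E-box or to the antioxidant response element core as searched. The AP-1 site nearer the start is followed by GC and reads TGAGTCAGC, which differs from the searched core in 1 letter. Forms of the element with G at that place were not searched, so the window cannot be said to lack the element. Of all 27025 RefSeq promoters cut to the same length, 32.9% held a GC box, 6.05% an E-box, 4.43% an AP-1 site and 10.1% the antioxidant response element core. A match is a description of the letters, and only 76.3% of the tested genes had a window, so motif shares of risen and fallen genes were not compared.

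By change in CPM, a scale that is not adjusted for transcript length, the largest gains were in iron storage, chaperone and cytoskeleton transcripts. Ftl1 and Fth1, the light and heavy chains of ferritin, rose from 2114 ± 218 to 5303 ± 33.1 CPM and from 1570.1 ± 122 to 5050.5 ± 61.3 CPM. Hsp90aa1, the inducible cytosolic HSP90, rose from 1634 ± 157 to 4474 ± 97.4 CPM, the membrane-binding annexin gene Anxa2 from 1629 ± 63.1 to 3797 ± 67.4 CPM, and filamin C (Flnc), an actin crosslinker, from 304 ± 35.4 to 2449 ± 177 CPM. The largest losses were of Hmga1, an architectural chromatin protein (3488 ± 65.8 to 1595 ± 46.4 CPM), the nucleolar proteins Npm1 (2687 ± 162 to 852 ± 33.2 CPM) and Ncl (2158 ± 416 to 705 ± 15.2 CPM), the beta-tubulin Tubb5 (2413 ± 246 to 911 ± 25.4 CPM) and the membrane repair protein Myof (1588 ± 33.2 to 489 ± 5.62 CPM). All 10 genes were called by edgeR without overlap of the groups, and Hmga1 shares exon sequence with AI413582 on the opposite strand.

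The response was also set against that of EV cells. The difference is the log2 fold change with romidepsin in NRF2 cells minus that in EV cells, tested as an interaction in the same edgeR fit. It was called in 747 genes with a positive value (5.53%) and 1380 with a negative value (10.2%). Without NRF2 DMSO library 3 it was called in 924 (6.84%) and 2125 (15.7%). Of the 2127 genes called, 1107 fell in NRF2 cells with a negative difference and 647 rose with a positive one, so that 1754 were displaced further in the direction of their own change in NRF2 cells. Another 192 rose with a negative difference, 49 fell with a positive one and 132 were not called in NRF2 cells. The difference contains the change in NRF2 cells, so agreement of its sign with that change is favoured by how it is built. Genes were not sorted by the change in EV cells. Of 9550 genes called for romidepsin in both lines, 9486 moved in the same direction and 64 in opposite directions. The median absolute log2 fold change of all tested genes was 0.65 in NRF2 cells and 0.55 in EV cells.

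**Figure D2:**
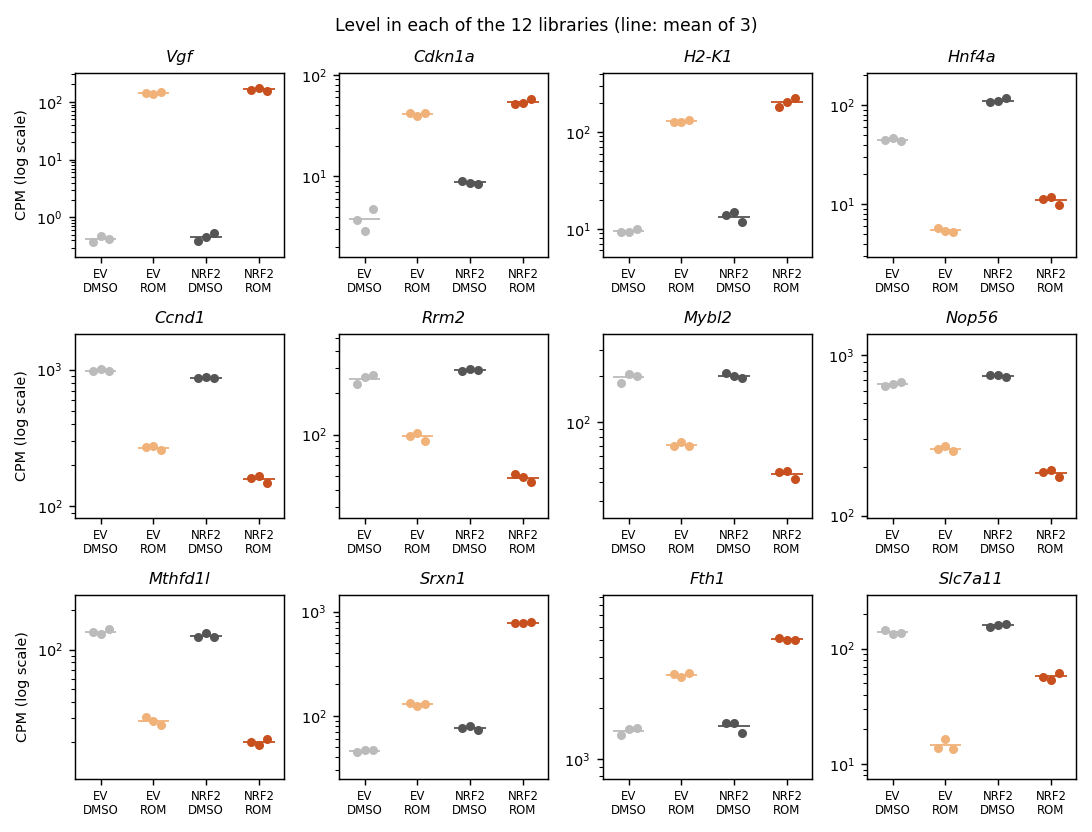
Level of 12 genes in each of the 12 libraries, in CPM on a log axis, for EV and NRF2 cells with DMSO or romidepsin (ROM); points are libraries and lines are means of 3. In NRF2 cells Vgf, Cdkn1a, H2-K1, Srxn1 and Fth1 lie higher with romidepsin and the other 7 lie lower, with no overlap between the 2 groups of 3 libraries.

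Cell cycle genes fell almost as a block, and further than in EV cells. Of 38 mitosis genes tested, 37 fell and 1 rose. Their median log2 change was -1.64 in NRF2 cells and -1.07 in EV cells. The difference between lines was called negative in 33 of the 38 and positive in 0, beside 10.2% negative over all genes (34 without DMSO library 3). Mybl2, a transcription factor of the late cell cycle, was at 211, 202 and 196 CPM with DMSO and 47.1, 47.6 and 42.2 CPM with romidepsin. The groups did not overlap (log2 fold change -2.15 ± 0.06, edgeR adjusted p = 2.6e-15), and the difference from EV cells was -0.68 ± 0.08 (edgeR adjusted p = 4.8e-05). Cdc20, the activator of the anaphase-promoting complex, fell 4.79-fold, Plk1, a mitotic kinase, 4.18-fold and Kif20a, a kinesin of cytokinesis, 4.23-fold. Cdc20 overlaps Elovl1 and Kif20a overlaps Cdc23 on the opposite strand. Pttg1, which encodes securin, was the member that rose, from 13.03 ± 1.34 to 23.6 ± 1.79 CPM (edgeR adjusted p = 3.3e-08).

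DNA replication and S phase genes showed the same pattern. Of 38, 34 fell and 3 rose, with a median of -1.17 in NRF2 and -0.70 in EV cells, and the difference was negative in 28 (32 without DMSO library 3) and positive in none. Mcm3, a subunit of the replicative helicase, was at 174, 173 and 167 CPM with DMSO and 45.4, 45.9 and 41.8 CPM with romidepsin. It fell 3.86-fold (edgeR adjusted p = 2.2e-15), with a difference from EV cells of -0.76 ± 0.08 (edgeR adjusted p = 5e-06). Its partner subunit Mcm5 fell 3.17-fold, the replication factor Mcm10 3.62-fold and the CDK phosphatase Cdc25a 3.17-fold. E2f2, an E2F activator, rose from 22.2 ± 1.71 to 27.9 ± 1.27 CPM (edgeR adjusted p = 0.00015).

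Genes of homologous recombination and of the Fanconi pathway, which repair double-strand breaks and crosslinks, gave 25 falls and no rise among 29, a median of -0.82, and a negative difference in 16 (19 without DMSO library 3). Fancd2 fell from 46.998 ± 0.405 to 11.7 ± 0.233 CPM, the checkpoint kinase Chek1 from 28.9 ± 2.504 to 7.58 ± 0.663 CPM and Bard1, the partner of BRCA1, from 30.4 ± 0.458 to 8.22 ± 0.519 CPM.

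**Figure D3:**
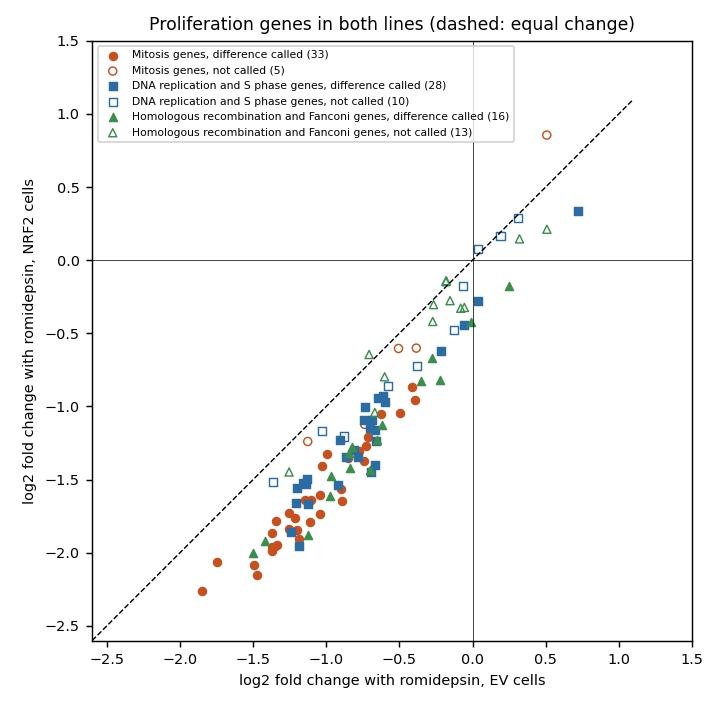
Log2 fold change with romidepsin in EV cells (horizontal) and NRF2 cells (vertical) of the tested mitosis, replication and repair genes, with filled symbols where the difference between the lines was called. The 33, 28 and 16 genes with a called difference all lie below the dashed line of equal change.

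At the G1 control point most cyclin, kinase and E2F genes fell, while more CDK inhibitor and growth arrest genes rose than fell. Of 15 D cyclin, G1 kinase, E2F and pocket protein genes, 13 fell and 2 rose. Ccnd1, which encodes cyclin D1, was at 874, 877 and 873 CPM with DMSO and 162, 166 and 149 CPM with romidepsin, 5.51-fold lower (edgeR adjusted p = 4.4e-17). The fall was larger than in EV cells by -0.59 ± 0.07 on the log2 scale (edgeR adjusted p = 1.9e-05). Its kinase Cdk4 fell 3.11-fold, the repressor E2f8 3.04-fold and E2f3 2.86-fold, while Rb1, the retinoblastoma pocket protein, rose 2.02-fold. Ccnd1 overlaps LTO1, Cdk4 overlaps Tspan31 and Rb1 overlaps Lpar6 and Rcbtb2, all on opposite strands.

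Of 14 CDK inhibitor and growth arrest genes, 9 rose and 3 fell. Cdkn1a (chromosome 17, 29090976 to 29100727), whose product p21 inhibits cyclin-dependent kinases, was at 8.95, 8.68 and 8.48 CPM with DMSO and 51.8, 53.3 and 57.6 CPM with romidepsin. All 3 romidepsin libraries were higher (log2 fold change 2.64 ± 0.09, edgeR adjusted p = 2.6e-14). The rise was smaller than in EV cells, where it was 3.40 ± 0.11, by -0.76 ± 0.15 (edgeR adjusted p = 0.0019). EV cells started lower, at 3.78 ± 0.925 CPM with DMSO, and reached 41.1 ± 1.69 CPM. The growth arrest genes Gadd45g and Btg2 rose 4.55-fold and 2.296-fold and the CDK4 inhibitor Cdkn2d 2.72-fold, while Cdkn2b, which encodes p15, fell 1.58-fold.

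Genes of ribosome production fell in most cases. Of 32 ribosome biogenesis genes 27 fell and 1 rose (median -0.79), and the difference from EV cells was negative in 14 and positive in none. Nop56, a core protein of the snoRNA particles that methylate ribosomal RNA, was at 746, 749 and 729 CPM with DMSO and 186, 193 and 175 CPM with romidepsin. It fell 4.01-fold (edgeR adjusted p = 3.6e-16), more than in EV cells by -0.67 ± 0.07 (edgeR adjusted p = 5.2e-06), and overlaps Idh3b on the opposite strand. Gnl3, the nucleolar GTPase nucleostemin, fell 3.81-fold, Utp20, of the small subunit processome, 3.91-fold and Dkc1, the pseudouridine synthase dyskerin, 3.84-fold. Bop1 rose 1.64-fold. Dkc1 and Bop1 overlap Mpp1 and Mroh1 on the opposite strand.

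Cytosolic ribosomal protein genes moved together by a smaller amount. Of 39, 33 fell and none rose, 39 fell without DMSO library 3, and the median was -0.45. Rps23 fell 1.88-fold and Rpl10a 1.87-fold. The count of members with a negative difference was 1, and 19 without DMSO library 3, so it rests on that library. Of 26 mitochondrial ribosomal protein genes, 16 fell and 4 rose, or 8 rose with factors from library size alone. Myc, the transcription factor that drives ribosome and nucleotide genes, fell from 331 ± 60.8 to 174 ± 4.95 CPM (edgeR adjusted p = 2e-06), while its antagonist Mxd1 rose 4.23-fold (edgeR adjusted p = 8.8e-13), more than in EV cells by 0.66 ± 0.13 (edgeR adjusted p = 0.0029).

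Nucleotide synthesis genes gave 23 falls and 2 rises among 26, with a median of -0.76 in NRF2 and -0.49 in EV cells and a negative difference in 12 (18 without DMSO library 3). Rrm2, the regulatory subunit of ribonucleotide reductase (chromosome 12, 24708241 to 24714146), was at 289, 295 and 291 CPM with DMSO and 52.04, 49.4 and 45.2 CPM with romidepsin in NRF2 cells. EV cells went from 253 ± 20.5 to 96.9 ± 6.07 CPM. The fall in NRF2 cells was 5.96-fold (edgeR adjusted p = 7.8e-16), and exceeded that in EV cells by -1.19 ± 0.09 on the log2 scale (edgeR adjusted p = 2.1e-07). The catalytic subunit Rrm1 fell 3.37-fold, with a difference of -0.66 ± 0.07 (edgeR adjusted p = 1.4e-05), and thymidine kinase Tk1, which overlaps Afmid on the opposite strand, 4.99-fold. Impdh1, of guanine nucleotide synthesis, rose 2.62-fold. Of 20 cytosolic tRNA synthetase genes 15 fell, led by Vars (2.501-fold) and Tars (2.41-fold), and 3 rose, among them Qars (1.22-fold).

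Serine, glycine and folate one-carbon genes, which feed purine, thymidylate and glutathione synthesis, fell in 19 of 21 and rose in 1 (median -1.08). Mthfd1l, the mitochondrial enzyme that releases formate (chromosome 10, 3973118 to 4167081), was at 125, 133 and 125 CPM with DMSO and 19.9, 18.9 and 20.9 CPM with romidepsin. The fall was 6.44-fold with no overlap (edgeR adjusted p = 2.3e-16), and the difference from EV cells was -0.43 ± 0.09 (edgeR adjusted p = 0.0024). Shmt2, the mitochondrial serine hydroxymethyltransferase, fell 3.87-fold and Gldc, of glycine cleavage, 3.93-fold. Cbs, which channels homocysteine toward cysteine, was the member that rose, from 3.37 ± 0.344 to 25.1 ± 0.779 CPM (edgeR adjusted p = 1.2e-13). The difference between lines was negative in 7 members, or 11 without DMSO library 3, and positive in 2.

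Atf4, the transcription factor of the integrated stress response that drives several of these genes, was at 452, 494 and 379.6 CPM with DMSO and 115, 120.1 and 123 CPM with romidepsin (edgeR adjusted p = 3.4e-12). Of 21 genes of that response 13 fell and 4 rose (15 and 4 without DMSO library 3). Trib3, a pseudokinase that feeds back on ATF4, fell 5.09-fold and the related factor Atf5, which overlaps Nup62 on the opposite strand, 4.53-fold, while Atf3 rose 4.58-fold. Of 26 glutamine, aspartate and amino acid transport genes, 13 fell and 7 rose. The glycine transporter Slc6a9 and the glutamine transporter Slc38a1 fell 4.57-fold and 3.72-fold, and glutamine synthetase Glul rose from 105 ± 5.05 to 316 ± 5.61 CPM (edgeR adjusted p = 2.1e-15). Slc6a9 overlaps Ccdc24 on the opposite strand.

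NRF2-regulated genes did not move as 1 group. Of 20 glutathione, thioredoxin and iron genes, 14 rose and 5 fell, with a median of 1.14 in NRF2 and 0.78 in EV cells. The difference was positive in 8 and negative in 2 (7 without DMSO library 3). Of 27 detoxification genes 18 rose and 6 fell, with a median of 0.71 in NRF2 and 1.07 in EV cells, and here the difference was positive in 2 and negative in 11. The background was 5.53% positive and 10.2% negative.

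Srxn1, which encodes sulfiredoxin and repairs overoxidized peroxiredoxins (chromosome 2, 152105516 to 152111376), showed the clearest gain. It was at 76.2, 80.6 and 73.5 CPM with DMSO and 779.7, 773 and 803 CPM with romidepsin in NRF2 cells, against 44.97, 47.02 and 46.6 and 133, 123 and 129.8 CPM in EV cells. NRF2 cells with romidepsin stood far above the other 9 libraries, the fold change was 10.2 (edgeR adjusted p = 1.7e-18), and the difference from EV cells was 1.87 ± 0.07 (edgeR adjusted p = 1.4e-11). Hmox1, heme oxygenase, rose from 100.1 ± 6.52 to 569 ± 35.3 CPM (edgeR adjusted p = 5.6e-15), with a difference of 1.25 ± 0.10 (edgeR adjusted p = 6.4e-07).

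Fth1, the ferritin heavy chain, was at 1639.9, 1641 and 1429 CPM with DMSO and 5121, 5011 and 5019 CPM with romidepsin, with a difference from EV cells of 0.59 ± 0.08 (edgeR adjusted p = 9.1e-05). Osgin1 rose 3.28-fold. Gclc and Txnrd1, named here after their values were seen, encode the catalytic subunit of glutamate-cysteine ligase and thioredoxin reductase. Gclc rose from 111 ± 7.29 to 275 ± 11.4 CPM in NRF2 cells and went from 52.4 ± 1.92 to 50.6 ± 0.917 CPM in EV cells, a difference of 1.37 ± 0.08 (edgeR adjusted p = 3.6e-09). Txnrd1 rose from 267 ± 3.38 to 524 ± 11.5 CPM, with a difference of 0.65 ± 0.06 (edgeR adjusted p = 8.7e-07).

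Slc7a11, the cystine importer that supplies cysteine for glutathione, fell against the majority. It was at 155, 159.6 and 162 CPM with DMSO and 57.4, 53.8 and 62.1 CPM with romidepsin, 2.76-fold lower (edgeR adjusted p = 3.9e-13). EV cells fell from 144, 135 and 136 CPM to 13.9, 16.6 and 13.5 CPM. The romidepsin libraries of NRF2 cells lay above those of EV cells without overlap, and the difference was 1.77 ± 0.09 (edgeR adjusted p = 2.3e-09).

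Several glutathione transferases responded less in NRF2 cells, or fell. Gsta4, which conjugates lipid aldehydes, was at 49.5, 54.7 and 46.3 CPM with DMSO and 215, 209.7 and 208 CPM with romidepsin, against 4.49, 2.902 and 4.36 and 89.6, 85.9 and 90.2 CPM in EV cells. NRF2 cells started well above EV cells and the 2 lines came closer with romidepsin, with a difference of -2.41 ± 0.12 (edgeR adjusted p = 2.3e-09). Gsta1 fell from 55.7 ± 4.28 to 28.1 ± 3.34 CPM (edgeR adjusted p = 8.7e-05). Its difference of -2.94 ± 0.83 (edgeR adjusted p = 0.033) was not called without DMSO library 3 (edgeR adjusted p = 0.071). Its counts are shared with close copies of the alpha class. Ephx1, a microsomal epoxide hydrolase, rose 5.69-fold, less than in EV cells by -1.23 ± 0.18 (edgeR adjusted p = 0.00017). Gstm6 rose from 0.222 ± 0.062996 to 6.59 ± 1.26 CPM, and aldehyde oxidase Aox1 fell 5.03-fold. The iron exporter Slc40a1, named after its values were seen, rose from 4.68 ± 0.562 to 8.36 ± 0.481 CPM, with a difference of -3.12 ± 0.33 (edgeR adjusted p = 8.3e-06).

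**Figure D4:**
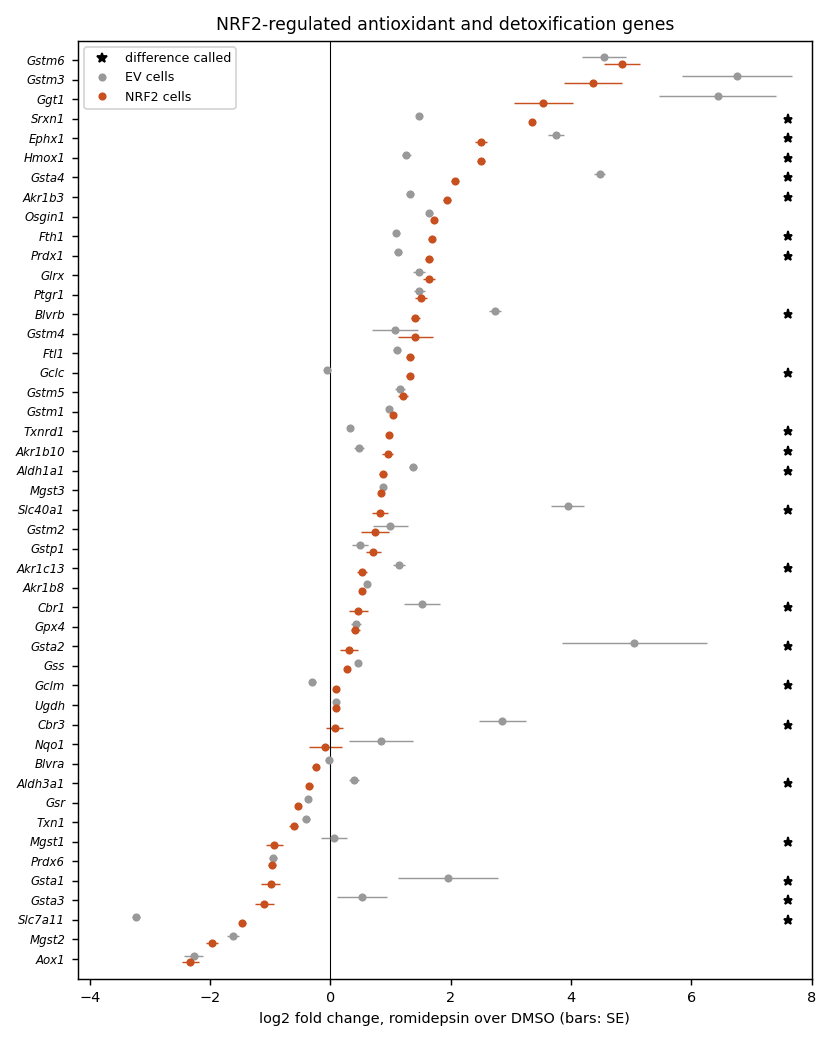
Log2 fold change with romidepsin (points, with SE bars) of the tested antioxidant and detoxification genes in EV cells (grey) and NRF2 cells (orange), ordered by the change in NRF2 cells, with stars where the difference was called. Srxn1, Hmox1, Gclc and Slc7a11 lie to the right of their EV values, and Gsta4, Ephx1 and Slc40a1 to the left.

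Among NRF2's partners and regulators 7 of 15 rose and 6 fell. The small MAF gene Mafg fell 2.33-fold while Mafk rose 2.15-fold, and the repressor gene Bach2 rose from 0.923 ± 0.241 to 2.28 ± 0.273 CPM. Sqstm1, whose product p62 sequesters KEAP1, rose 2.15-fold, more than in EV cells by 0.67 ± 0.09 (edgeR adjusted p = 8.9e-05). Mafk overlaps Tmem184a and Sqstm1 overlaps Mrnip on the opposite strand. In the pentose phosphate pathway the NADPH-yielding enzymes G6pdx and Pgd rose 1.66-fold and 1.52-fold, with differences of 0.39 ± 0.06 (edgeR adjusted p = 0.00029) and 0.45 ± 0.06 (edgeR adjusted p = 8.3e-05), and Rpia fell 1.85-fold. G6pdx overlaps Ikbkg on the opposite strand. Over the 15 genes of that list 6 rose and 7 fell.

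Drug efflux transporters split. Of 11, 6 rose and 5 fell. Abcb1a and Abcb1b, the mouse P-glycoprotein genes whose human counterpart exports romidepsin, were at 45.7, 46.8 and 50.1 and 166, 174 and 188 CPM with DMSO and at 12.9, 10.97 and 11.7 and 43.6, 43.3 and 39.2 CPM with romidepsin. Neither gene's groups overlapped (edgeR adjusted p = 3.3e-13 and edgeR adjusted p = 2e-15), and both fell more than in EV cells, by -0.91 ± 0.12 (edgeR adjusted p = 7.1e-05) and -0.71 ± 0.08 (edgeR adjusted p = 1.5e-05). Reads that fit both copies are divided by estimation. Abcg2 rose from 8.04 ± 1.43 to 30.6 ± 1.003 CPM and the cholesterol exporter Abca1 from 1.04 ± 0.313 to 5.27 ± 0.982 CPM.

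Genes of the deacetylases and of their opponents, the acetyltransferases, were examined next. Of 17 deacetylase genes of all classes, 7 rose and 9 fell. The class I genes, whose products romidepsin binds, are given after their values were seen. Hdac1 rose from 106 ± 2.35 to 194 ± 4.35 CPM (edgeR adjusted p = 2.9e-12), while Hdac2 fell from 173 ± 12.2 to 132 ± 0.627 CPM (edgeR adjusted p = 9.3e-07) and Hdac8 from 7.84 ± 1.298 to 5.38 ± 0.579 CPM (edgeR adjusted p = 0.0009). Hdac3 was at 148 ± 14.1 and 162 ± 1.34 CPM (edgeR adjusted p = 0.037), a call that was lost without DMSO library 3 (edgeR adjusted p = 0.34), without any 1 of the romidepsin libraries (edgeR adjusted p = 0.063 to 0.11), with the NRF2 libraries alone (edgeR adjusted p = 0.089) and with no filter (edgeR adjusted p = 0.11). The largest changes were outside class I. Hdac7, a class IIa enzyme, fell from 173 ± 12.5 to 37.4 ± 2.78 CPM (edgeR adjusted p = 2.9e-15) and Hdac9, of the same class, from 2.75 ± 0.196 to 0.162 ± 0.0193 CPM (edgeR adjusted p = 7.3e-10), while Hdac11 rose from 12.2 ± 0.159 to 51.6 ± 2.05 CPM (edgeR adjusted p = 2.6e-15) and the nuclear sirtuin gene Sirt7 rose 2.59-fold. All 15 histone acetyltransferase and BET reader genes fell (14 without DMSO library 3), with a median of -0.60. Kat2b and Kat2a fell 2.79-fold and 2.46-fold, and Ep300 and Crebbp, which encode p300 and CBP, each fell 2.22-fold.

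Of 25 corepressor genes 17 fell and 4 rose, and the falls were led by NuRD subunits. Chd3, its ATPase, was at 291, 290.1 and 292 CPM with DMSO and 58.2, 63.6 and 61.5 CPM with romidepsin, with every romidepsin library lower (edgeR adjusted p = 7.8e-16). Mta3, Mbd3 and Mta1 fell 3.63-fold, 2.66-fold and 2.48-fold, and Sap18, which overlaps Ska3 on the opposite strand, rose 1.71-fold. Of 23 Polycomb and DNA methylation genes 12 fell and 5 rose (8 and 9 rose with upper-quartile factors and with library size alone), with Bmi1 4.63-fold and Phf19 4.39-fold lower. Among 15 histone genes the linker histone genes H1f0 and H1f2 rose 3.62-fold and 8.58-fold, and the centromeric Cenpa fell 3.61-fold.

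Genes known to respond to HDAC inhibitors rose in 16 of 19 and fell in 2 (median 1.86). Gsn, the actin-severing protein gelsolin, rose from 81.9 ± 10.7 to 481 ± 2.81 CPM (edgeR adjusted p = 2.1e-14), and the metallothionein gene Mt2 5.45-fold. The list was written from general knowledge of the drug class, but with earlier results of these data known, so its count is no independent support. Members near silent with DMSO, such as Vgf, passed the filter only through another group. The list shares Vgf, H1f0 and Cdkn1a with other accounts here. Ccng2 fell 1.56-fold.

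Genes of neurons came on together. Of 42 neuronal genes, 24 passed the filter, 21 of them rose and 1 fell, and the other 18 were too low to test. As the filter lets a silent gene through only where another group expresses it, this count overstates the share of rises. Uchl1, a neuronal ubiquitin hydrolase, was at 2.75, 3.35 and 2.42 CPM with DMSO and 103, 105 and 101 CPM with romidepsin. It rose 35.4-fold with no overlap (edgeR adjusted p = 3.4e-18). L1cam, a neural adhesion molecule, rose from 0.213 ± 0.05305 to 7.97 ± 1.35 CPM, and Nefl, the light neurofilament, had 0 counts with DMSO and 45, 61 and 44 counts with romidepsin, at least 46.9-fold higher. Bdnf, a neurotrophin, fell 1.78-fold. Of 13 voltage-gated channel genes tested of 24, 10 rose and 3 fell. The T-type calcium channel gene Cacna1g rose from 0.182 ± 0.05504 to 24.6 ± 1.23 CPM, which exceeded EV cells by 2.98 ± 0.30 (edgeR adjusted p = 5.6e-06), and the beta subunit gene Cacnb2 fell 2.34-fold.

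More epithelial genes rose than fell, and more mesenchymal genes fell than rose. Of 26 epithelial genes tested of 30, 21 rose and 4 fell. Of 19 mesenchymal genes tested of 24, 5 rose and 14 fell, and the medians were 1.56 and -0.70. These counts are not adjusted for level or for the filter. Among all tested genes, 65.5% of those below 1 CPM with DMSO rose and 63.7% of those at 100 CPM or more fell. Epcam, an epithelial adhesion molecule, was at 0.0983, 0.0381 and 0.0606 CPM with DMSO and 7.06, 7.17 and 7.47 CPM with romidepsin, near silent in each DMSO library and above 7 CPM in each romidepsin library (edgeR adjusted p = 3.2e-13). The tight junction genes Cldn4, Ocln and Tjp3 rose from 0.176 to 2.68 CPM, from 0.418 to 4.99 CPM and from 0.349 to 6.35 CPM. Tjp3 overlaps Apba3 on the opposite strand.

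Cdh1, which encodes E-cadherin and is the defining gene of the epithelial list, went the other way, from 417 ± 9.78 to 227 ± 2.92 CPM (edgeR adjusted p = 3.1e-12), a larger fall than in EV cells by -0.36 ± 0.06 (edgeR adjusted p = 0.00072). Among mesenchymal genes, Hmga2, an architectural chromatin factor, fell from 871 ± 62.9 to 139 ± 2.59 CPM, by 6.28-fold, with a difference of -0.75 ± 0.08 (edgeR adjusted p = 1.1e-05). The matrix protease Mmp14 fell 4.697-fold, while collagen Col1a1 and Snai1, which encodes a repressor of E-cadherin, rose from 0.782 ± 0.136 to 7.83 ± 0.475 CPM and from 1.02 ± 0.328 to 4.53 ± 0.586 CPM.

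More matrix genes rose than fell, several of them from low levels. Of 22 collagen and matrix genes tested of 28, 14 rose and 4 fell, with positive differences from EV cells in 7 and negative ones in 2. Col16a1 rose from 0.0984 to 4.72 CPM and Thbs2, a thrombospondin, from 0.243 to 2.49 CPM. Tnc, the matrix glycoprotein tenascin C, was at 60.8, 60.5 and 60.5 CPM with DMSO and 12.5, 11.8 and 12.3 CPM with romidepsin. It fell 4.97-fold (edgeR adjusted p = 3.5e-16), and exceeded the fall in EV cells by -1.55 ± 0.07 (edgeR adjusted p = 6.1e-10). Of 19 integrin and laminin genes 11 rose and 4 fell, with Itga7 from 0.991 to 17.3 CPM, Lamb3 4.02-fold higher and Itga2, a collagen receptor subunit, 2.299-fold lower.

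Of 20 actin cytoskeleton and SRF target genes 8 rose and 11 fell, with Ccn2, a matricellular growth factor, 3.68-fold higher and Filip1l 3.36-fold lower. In the tubulin family 10 of 15 genes rose and 5 fell: Tubb2a, Tubb2b and the neuronal Tubb3 rose 5.84-fold, 9.61-fold and 5.06-fold, while Tubb5 fell 2.65-fold. Annexin and S100 genes rose in 6 and fell in 9 of 17. Anxa6 was at 12.5, 13.7 and 13.1 CPM with DMSO and 127, 129.7 and 125 CPM with romidepsin, 9.71-fold higher and more than in EV cells by 1.67 ± 0.08 (edgeR adjusted p = 6.1e-10). Anxa10 fell 6.47-fold, with a difference of -1.61 ± 0.29 (edgeR adjusted p = 0.0015), and Anxa3 fell from 973 ± 32.8 to 364 ± 3.44 CPM.

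More antigen presentation and interferon genes rose than fell. Of 15 MHC class I presentation genes tested of 18, 9 rose and 4 fell, each of the 4 at least 2-fold. H2-K1, a classical class I heavy chain (chromosome 17, 33996017 to 34000347), was at 13.8, 14.8 and 11.6 CPM with DMSO and 182, 206 and 225 CPM with romidepsin. It rose 15.1-fold (edgeR adjusted p = 3.6e-16), and counts of class I heavy chains depend on how reads shared among them were divided. Nlrc5, the activator of class I genes, and the peptide transporter Tap2 rose from 0.351 to 5.24 CPM and from 0.515 to 5.76 CPM, and the peptide trimming enzyme Erap1, which overlaps Cast on the opposite strand, fell 6.85-fold. Of 29 interferon-stimulated genes 19 were tested, 15 rose and 2 fell. Members silent with DMSO passed the filter only through another group, so the share of rises is partly set by it. Irf7, a master factor of the interferon response, rose from 0.163 ± 0.174 to 10.99 ± 0.508 CPM and Stat2 from 6.48 ± 0.951 to 23.7 ± 1.95 CPM. The chemokine gene Cxcl10 had 1 count with DMSO and 353 with romidepsin, a ratio of 331 with a 95% interval of 59.0 to 13102 (Clopper-Pearson). Irf7 overlaps Phrf1 on the opposite strand.

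Cytokine genes rose in 9 and fell in 4 of 16 tested of 25. Lif, of the interleukin 6 family like Clcf1, was at 42.3, 46.8 and 44.4 CPM with DMSO and 8.23, 9.04 and 8.499 CPM with romidepsin, 5.17-fold lower (edgeR adjusted p = 1.7e-15). Cx3cl1, a membrane-bound chemokine, rose 3.33-fold.

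Genes of apoptosis changed on both sides. Of 10 pro-survival genes 9 fell and 0 rose (median -0.73), and of 16 pro-death genes 8 rose and 5 fell (median 0.33). Cflar, the inhibitor of caspase 8 known as c-FLIP, was at 79.9, 80.4 and 84.7 CPM with DMSO and 32.1, 28.97 and 28.2 CPM with romidepsin, 2.74-fold lower (edgeR adjusted p = 1.5e-13), with a difference from EV cells of -0.56 ± 0.08 (edgeR adjusted p = 0.00017). Xiap and Birc5, of the inhibitor of apoptosis family, fell 2.16-fold and 1.94-fold. Bcl2l11, which encodes BIM, rose 2.81-fold and Pmaip1, which encodes NOXA, 1.903-fold, while Casp8 and Bok fell 2.696-fold and 3.64-fold. Among 22 tested genes of the p53 pathway 14 rose and 5 fell, with Trp53inp1 3.27-fold higher beside Cdkn1a.

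More receptor tyrosine kinase genes rose than fell, and genes of the RAS pathway divided about as all genes did. Of 20 receptor tyrosine kinase genes tested of 28, 15 rose and 5 fell, a count that the filter raises in the way given for neuronal genes. Ret was at 0.246, 0.114 and 0.182 CPM with DMSO and 19.03, 19.3 and 17.6 CPM with romidepsin, near silent in every DMSO library and above 15 CPM in every romidepsin library (edgeR adjusted p = 2.6e-15). Erbb3, a partner of EGFR and HER2, rose from 2.31 ± 0.317 to 37.97 ± 1.74 CPM (edgeR adjusted p = 1.1e-15), less than in EV cells by -1.05 ± 0.20 (edgeR adjusted p = 0.0019), Fgfr3 rose 7.34-fold, and Igf1r fell 1.85-fold. Of 30 RAS pathway genes 12 rose and 14 fell, with the ERK target Etv4 2.79-fold lower and the phosphatase Dusp1 4.44-fold higher. Dusp1 overlaps Ergic1 on the opposite strand.

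Among 17 AP-1 and immediate early genes 11 rose and 5 fell, and 3 fell without DMSO library 1, without romidepsin library 3 or with other scaling factors. Fosl1, which encodes FRA1, fell from 291 ± 30.4 to 82.9 ± 2.803 CPM (edgeR adjusted p = 3.4e-14) and Fos rose from 1.199 ± 0.0419 to 11.3 ± 0.479 CPM (edgeR adjusted p = 3.2e-12). Fosl1 overlaps Ccdc85b on the opposite strand. Of the Kruppel-like factors 3 of 15 rose and 8 fell. Klf8 rose from 0.945 ± 0.259 to 4.98 ± 0.579 CPM, more than in EV cells by 1.70 ± 0.23 (edgeR adjusted p = 8.8e-05), and Klf4 rose 2.08-fold, less than in EV cells by -0.93 ± 0.16 (edgeR adjusted p = 0.0006). Of 25 Notch and TGF-beta genes 14 rose and 11 fell. The receptor genes Notch1 and Notch3 rose from 0.584 to 8.79 CPM and from 0.0544 to 8.74 CPM, and Id3, a target of BMP signalling, fell 3.002-fold.

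Autophagy and lysosome genes moved less, and upward in most cases. Of 25 autophagy genes 20 rose and 2 fell (median 0.46), with a positive difference from EV cells in 10 (12 without DMSO library 3) and a negative one in none. Map1lc3b, which encodes the autophagosome protein LC3B, was at 120.4, 127 and 108 CPM with DMSO and 333, 342 and 359 CPM with romidepsin, 2.91-fold higher (edgeR adjusted p = 3.3e-14), and overlaps Zcchc14 on the opposite strand. Its relatives Map1lc3a and Gabarapl2 rose 3.11-fold and 2.905-fold, and the kinase gene Ulk2 fell 2.53-fold. Of 27 lysosome genes 18 rose and 5 fell, with the proton pump subunits Atp6v0d1 and Atp6v1a 3.53-fold and 3.24-fold higher and the glucuronidase Gusb 4.24-fold lower. Proteasome genes rose in 13 and fell in 6 of 27, all by less than 2-fold, and 3 fell without DMSO library 2, without romidepsin library 3 or with other scaling factors. Their median log2 change of 0.10 is of a size that depends on the scaling, so no direction is given for them.

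Cytosolic chaperone genes fell in 16 of 25 and rose in 7. Heat-inducible forms were among the rises. Hspa1b, an inducible HSP70, was at 7.67, 7.76 and 7.64 CPM with DMSO and 64.9, 64.8 and 71.4 CPM with romidepsin (edgeR adjusted p = 8.9e-17), and Hspb1, which encodes HSP27, rose from 27.01 ± 7.61 to 180.1 ± 22.8 CPM (edgeR adjusted p = 2.1e-07). Hspa1a and Hspa1b are near-identical copies, so the division between them is uncertain. In the endoplasmic reticulum the chaperone Hspa5 rose 1.89-fold and Herpud1, of protein degradation there, fell 3.17-fold, with 10 rises and 8 falls among 22.

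Of 22 glycolysis genes 14 rose and 6 fell. The largest rises were of isoforms known from other tissues. Eno2, the neuronal enolase, was at 1.13, 0.571 and 0.485 CPM with DMSO and 20.8, 20.2 and 23.4 CPM with romidepsin (edgeR adjusted p = 2.9e-14), and Aldoc, the brain aldolase, rose from 4.505 ± 0.559 to 35.6 ± 3.01 CPM. Of 28 tricarboxylic acid cycle and pyruvate genes 16 rose and 8 fell, led by Pcx, pyruvate carboxylase, from 31.4 ± 3.602 to 200.0 ± 2.63 CPM, and the pyruvate dehydrogenase kinase Pdk2, from 4.88 ± 0.344 to 27.2 ± 2.27 CPM. Suclg2 fell 2.85-fold. Nuclear-encoded respiratory chain genes rose in 16 and fell in 7 of 31. Without DMSO library 3, 15 rose and 10 fell, while 4 fell without romidepsin library 3 and 2 with library size alone. The 13 mitochondrially encoded genes gave 4 falls and no rise, but 4 rises and 4 falls without DMSO library 3, so no direction is given for them.

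Fatty acid synthesis genes divided, with 9 rises and 7 falls among 20. Acss2, which makes acetyl-CoA from acetate, was at 6.64, 7.27 and 7.64 CPM with DMSO and 103, 104 and 109.5 CPM with romidepsin (edgeR adjusted p = 1.6e-17), and overlaps Ggt7 and Gss on the opposite strand. Fatty acid synthase Fasn fell from 439 ± 29.1 to 122 ± 23.2 CPM (edgeR adjusted p = 1.2e-07) and Acsl5, which activates fatty acids, fell 7.13-fold, more than in EV cells by -0.72 ± 0.07 (edgeR adjusted p = 2e-06). Acsl5 overlaps Zdhhc6 on the opposite strand. Cholesterol synthesis genes rose in 14 and fell in 2 of 25. Insig1, the sterol sensor that holds SREBP in the endoplasmic reticulum, was at 37.6, 39.1 and 42.4 CPM with DMSO and 64.8, 127 and 273 CPM with romidepsin (edgeR adjusted p = 0.0044). The 3 romidepsin libraries differed widely among themselves here while the DMSO libraries lay close together. In polyamine metabolism the catabolic genes Sat1 and Smox rose 4.88-fold and 3.59-fold and spermidine synthase Srm fell 2.61-fold, with 8 rises and 3 falls among 11.

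**Figure D5:**
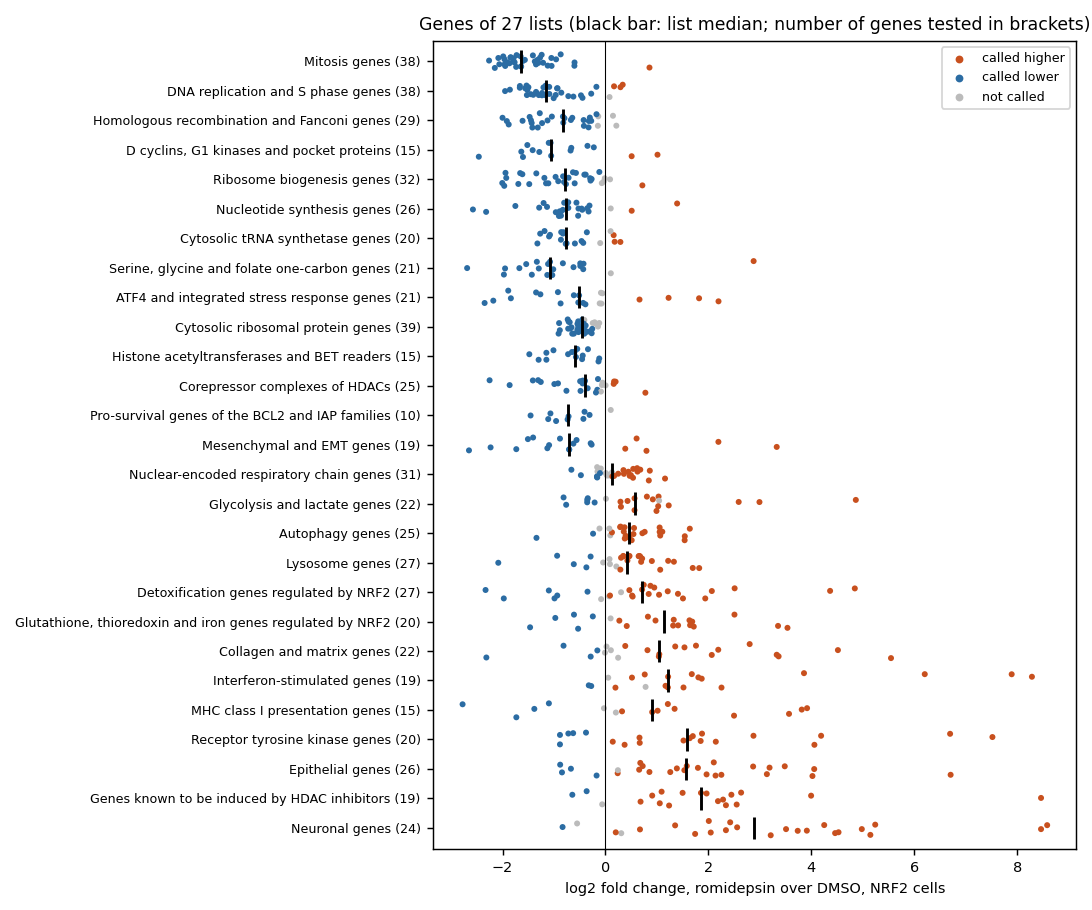
Log2 fold change with romidepsin in NRF2 cells (horizontal axis) of the tested genes of 27 lists, each point a gene coloured by its call and each black bar the list median. Mitosis genes have the lowest median at -1.64 and neuronal genes the highest at 2.88, against 0.01 for all genes. The neuronal median is over the 24 of 42 members that passed the filter. Members near silent with DMSO passed only if another group expressed them, so this median is partly set by the filter.

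A set of genes had no count at all with DMSO. They numbered 16262, of which 2577 had a count with romidepsin and 624 had one in all 3 romidepsin libraries. At least 30 counts over the romidepsin group were reached by 132, of which 56 had a count in EV cells with DMSO. The 5 highest were Gsdma and Hba-a2, given above, and Col5a3, Prtn3 and Fxyd7. Col5a3, a fibrillar collagen, reached 8.98, 8.93 and 7.99 CPM, Prtn3, a protease of neutrophil granules, 7.39, 6.93 and 7.301 CPM, and Fxyd7, a sodium pump regulator of brain, 5.89, 6.36 and 7.24 CPM. Exons of Prtn3 overlap Plppr3 on the opposite strand. In the other direction, 11 genes had at least 30 counts with DMSO and none with romidepsin, and all 11 were predicted genes, pseudogenes or mitochondrial copies.

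Among genes that averaged at least 5 CPM over the 12 libraries, the largest positive differences from EV cells, beside Cacna1g and Srxn1, were in genes of low level with DMSO. Enpp2, which encodes the lysophospholipase autotaxin, was at 0.5898, 0.495 and 0.545 CPM with DMSO and 13.9, 13.5 and 13.7 CPM with romidepsin, a difference of 2.29 ± 0.21 (edgeR adjusted p = 1.7e-06). Vdr, the vitamin D receptor, rose from 0.324 ± 0.182 to 15.6 ± 0.461 CPM, a difference of 1.82 ± 0.32 (edgeR adjusted p = 0.00084), and brain creatine kinase Ckb from 4.03 ± 0.786 to 301 ± 18.2 CPM, a difference of 1.79 ± 0.16 (edgeR adjusted p = 5.9e-06). In all 3 genes the romidepsin libraries stood far above the DMSO libraries. In the same genes the largest negative differences, beside Gsta1 and Gsta4, were in Prl2c2 at -3.17 ± 0.61 (edgeR adjusted p = 0.0037), Prl2c3 at -2.82 ± 0.20 (edgeR adjusted p = 7.2e-08) and Tns1, a focal adhesion protein, at -2.03 ± 0.41 (edgeR adjusted p = 0.0028). Prl2c3 was at 4.18 ± 0.215 CPM in EV cells given DMSO and 1.72 ± 0.425 CPM in those given romidepsin, so NRF2 cells started above EV cells. Of the 64 genes that moved in opposite directions in the lines, 2 are named here after their values were seen. Tmsb4x, the actin-binding thymosin beta 4, fell from 397 ± 19.01 to 229 ± 7.94 CPM in NRF2 cells and went from 236 ± 6.98 to 259 ± 3.59 CPM in EV cells, a difference of -0.92 ± 0.06 (edgeR adjusted p = 7.2e-08). Angptl4, a secreted inhibitor of lipoprotein lipase, fell from 90.7 ± 1.99 to 40.8 ± 1.85 CPM in NRF2 cells and went from 29.5 ± 1.71 to 32.97 ± 2.397 CPM in EV cells, a difference of -1.31 ± 0.09 (edgeR adjusted p = 4.6e-08).

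The label LUAD was set against 18 markers of lung epithelium and lung adenocarcinoma. Their summed level was 4464 to 5003 CPM with DMSO and 7065 to 7397 CPM with romidepsin, with most of these counts from the keratins Krt8 and Krt18. The lineage factor Nkx2-1 was at 0.0381 to 0.246 CPM in the 6 libraries, Sftpa1 and Lamp3 had no count, and Sftpc, Sftpb, Sftpd and Napsa stayed at or below 0.303 CPM, so the defining alveolar markers were at or near 0. Hnf4a, a factor of gut and liver type epithelium that is known from lung adenocarcinomas lacking NKX2-1, was at 108, 109.9 and 117 CPM with DMSO and 11.2, 11.9 and 9.87 CPM with romidepsin, 10.03-fold lower (edgeR adjusted p = 3.8e-17). Foxa1 and Foxa2, pioneer factors of endoderm, fell 3.59-fold and 1.95-fold.

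Markers of other cells were checked as well. Of 17 markers of macrophages and other white blood cells, Adgre1, Ncr1 and Tyrobp had no count and Ptprc, the pan-leukocyte marker CD45, stayed at or below 0.387 CPM. Their summed level was 203 to 233 CPM with DMSO, most of them from Mrc1, and 110 to 114 CPM with romidepsin. Cd68 rose from 4.03 ± 0.324 to 68.4 ± 1.89 CPM (edgeR adjusted p = 9.8e-17) and Mrc1 fell from 201 ± 15.8 to 35.3 ± 1.48 CPM (edgeR adjusted p = 3.2e-16), with a difference from EV cells of -0.98 ± 0.08 (edgeR adjusted p = 6.4e-07). Endothelial markers summed to 5.58 to 6.93 CPM and 12.5 to 14.7 CPM, with Emcn and Cldn5 at 0 and Cdh5 at or below 0.114 CPM. Fibroblast markers summed to 3.501 to 7.33 CPM and 15.6 to 18.1 CPM, with Dcn, Lum and Col3a1 at or below 0.182 CPM. Other members of these lists were present at low levels and higher with romidepsin in part. Pecam1 was at up to 4.91 CPM with DMSO and 5.73 to 7.67 CPM with romidepsin, Egfl7 at 0.381 to 0.983 and 4.21 to 4.68 CPM, Pdgfra at 0.989 to 2.06 and 3.65 to 5.66 CPM, and Thy1 at 1.71 to 4.06 and 3.94 to 4.71 CPM, beside Col1a1, given above. The part of other cells in the results was not tested.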

How the data were processed

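Polyadenylated RNA of 12 libraries was analysed, 3 in each of 4 groups. Per the labels' protocols extraction used Trizol, followed by a TruSeq library kit. Per the submitters' processing notes the tools were bcl2fastq 2.19, kallisto 0.44.0 and DESeq2 (version not given in the sources used here), on GRCm38. The table analysed here holds the authors' kallisto estimated counts for each gene symbol, rounded by them to integers (100% of values were whole). The second deposited table held a signal, the estimated counts divided by 1 factor per library, as the ratios of the authors' 2 tables show within 5.2e-15. It was used as an alternative only. Where genes are near-identical copies, kallisto divides the shared reads by estimation.

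Genes were filtered with edgeR 4.0.16 (filterByExpr on the 4 groups), which left 13502 of 35013. They were fitted in 1 quasi-likelihood model of all 12 libraries with TMM factors, 1 coefficient for each group and 8 degrees of freedom left, and tested two-sided. Benjamini-Hochberg adjusted p-values over all tested genes were called under 0.05. SE was taken as the size of the log2 change over the root of its F statistic, and mean ± SD is over 3 libraries. The fit was also run on simulated data in which few genes changed with romidepsin in NRF2 cells. As most genes were called in the real data, that run cannot show whether the scaling holds there.

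The comparison, the 61 gene lists (1375 entries, written from general knowledge) and the rules were chosen with earlier results of these data known. Lists are described by counts and medians, with no set test. Genes were named by rule: Nfe2l2, Keap1 and Trp53; the 10 largest rises and falls averaging 5 CPM or more with no overlap, without predicted genes; the 5 largest gains and losses in CPM among 2-fold changes; up to 4 called members per list plus the largest against its majority; the 5 largest differences between lines in each direction; and the 5 highest genes with no count with DMSO. A few genes named by this rule are not reported here. Intervals and floors (3 counts over the group) cover counting error only. Positions are from GENCODE M21 (GRCm38), joined by symbol. Alternatives were other scaling factors, filters, DESeq2 1.42.0, limma-voom and limma-trend (limma 3.58.1, log2 of the deposited signal + 1), the NRF2 libraries alone, a replicate block, a threshold of 0.01 and leaving out each NRF2 library.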

Additional observations from a re-analysis of the deposited data

Results flagged for a closer look

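The response to romidepsin differed between NRF2 and EV cells by the interaction test of edgeR in 747 genes with a positive and 1380 genes with a negative value. The values below are log2 differences, NRF2 minus EV, each called at an adjusted p under 0.05.

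Genes that rose in NRF2 cells with a positive difference were Cacna1g (2.98), Enpp2 (2.29), Srxn1 (1.87), Vdr (1.82), Ckb (1.79), Klf8 (1.70), Anxa6 (1.67), Gclc (1.37), Hmox1 (1.25), Sqstm1 (0.67), Mxd1 (0.66), Txnrd1 (0.65), Fth1 (0.59), Pgd (0.45) and G6pdx (0.39). Genes that fell with a negative difference were Prl2c2 (-3.17), Gsta1 (-2.94), Prl2c3 (-2.82), Anxa10 (-1.61), Tnc (-1.55), Angptl4 (-1.31), Rrm2 (-1.19), Mrc1 (-0.98), Tmsb4x (-0.92), Abcb1a (-0.91), Mcm3 (-0.76), Hmga2 (-0.75), Acsl5 (-0.72), Abcb1b (-0.71), Mybl2 (-0.68), Nop56 (-0.67), Rrm1 (-0.66), Ccnd1 (-0.59), Cflar (-0.56), Mthfd1l (-0.43) and Cdh1 (-0.36).

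Genes that rose with a negative difference were Slc40a1 (-3.12), Gsta4 (-2.41), Tns1 (-2.03), Ephx1 (-1.23), Erbb3 (-1.05), Klf4 (-0.93) and Cdkn1a (-0.76). The fall was smaller than in EV cells in Slc7a11 (1.77). No explanation was tested for any of these values.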

How the results depend on the processing

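Counts over all genes stayed within 1.5 times its main value in 97 of 100 recomputations. The exceptions were the genes with a positive difference between lines at an adjusted p under 0.01 (309 against 747) and those with a negative one under 0.01 (741 against 1380) and without NRF2 DMSO library 3 (2125). Fewer calls at 0.01 follow from the threshold; for the library the cause was not tested.

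Leaving out 1 NRF2 library at a time gave 5204 to 5459 higher genes, 5122 to 5546 lower genes, 2569 to 2595 at least 2-fold higher, 1693 to 1766 at least 2-fold lower, 531 to 924 positive and 1057 to 2125 negative differences. Factors from library size alone gave 6256 higher and 4561 lower genes and upper-quartile factors 6080 and 4729.

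Same-numbered DMSO and romidepsin libraries did not deviate together (correlations of 0.0158, -0.0476 and 0.0625), and not every library correlated best with its own number, so the numbers were not taken as pairs. With a replicate block 5441 genes were higher and 5251 lower, and the difference was positive in 637 and negative in 1221.

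No named gene reversed. The romidepsin effect fell below the threshold in 48 of 5116 recomputations of named genes, among them Gsta1 with limma-trend (adjusted p = 0.25), and the difference between lines in 134 of 1968. At a threshold of 0.01, 5 autophagy genes had a positive difference, and 6 detoxification and 8 ribosome biogenesis genes a negative one.

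Depth limits genes near 0 with DMSO, whose folds are given as bounds or with counting intervals.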
